A study of Mus musculus with 4 samples.

Results

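The cells described here are 159 barcodes of mouse spinal cord, out of 20454 kept cells in all, that hold transcripts of meningeal and perivascular fibroblast genes. A kept cell had at least 500 UMIs (unique molecular identifiers, each standing for 1 captured RNA molecule), at least 200 detected genes and at most 15% mitochondrial UMIs. A fibroblast-rule cell, as used below, also had UMIs of at least 3 of the 6 genes Dcn, Col1a1, Col1a2, Col3a1, Lum and Slc6a13, at least 5 UMIs over all 6, fewer than 10 UMIs of the smooth muscle genes Acta2, Tagln and Myh11, and under 0.5% of its UMIs from the complement C1q genes of macrophages. The cells were thus chosen by the measured UMIs of those genes, whose values are given as a description.

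The study is titled for CD8 T cells that express granzyme K and for tauopathy in mice. It profiled cells of spinal cords with 10x Genomics 3' single-cell libraries, 1 library per group and 2 cords pooled in each, so no group has a replicate and no difference between groups was tested. The groups were P301S homozygous mice labelled CD8 KO at 30 weeks, P301S homozygous CD8 WT mice at 33 weeks, P301S homozygous CD8 WT mice at 30 weeks and P301S negative CD8 WT mice at 30 weeks. P301S names a mutant tau transgene. Neither its promoter nor the CD8 gene that was disrupted is given in the labels, and all CD8 KO mice carried the transgene. Cords came from mice perfused with saline, were dissociated enzymatically in a heated instrument and were cleared of myelin with beads, with no sort for fibroblasts. Below, the groups are called the library labelled CD8 KO, the 33-week library, the 30-week P301S hom library and the P301S neg library.

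Fibroblasts of the cord live in the dura, arachnoid and pia and in the sheaths of larger vessels and nerve roots. They lay down the collagens, small proteoglycans and elastic fibres of those layers, and the leptomeningeal ones carry retinoid enzymes, BMP ligands and transporters of amino acids and organic anions. After injury of the cord, collagen-producing fibroblasts enter the lesion and form the fibrous part of the scar.

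The libraries held between 36331214 and 43531426 UMIs in all barcodes, and the fibroblast-rule cells of a library held between 114757 and 568669. No fibroblast-rule cell was called a doublet by scrublet, which called between 0.870% and 1.71% of kept cells per library, and none of the 35 kept barcodes shared between libraries was one. Female transcripts (Xist) or male transcripts (Y-linked genes) sorted the libraries by sex. The library labelled CD8 KO had 4 female and 3146 male kept cells, and the 30-week P301S hom library had 3777 female and 0 male ones. The 33-week library had 1700 and 1316 and the P301S neg library 2079 and 1592, female first. In the comparison of the library labelled CD8 KO with the 30-week P301S hom library, genotype and sex therefore cannot be told apart.

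The fibroblast label held for part of the cells. Leiden clustering gave 6 clusters of the 159 cells, and 101 cells lay in 3 clusters whose median cell drew under 0.5% of its UMIs from endothelial, pericyte, Schwann and macrophage markers each. These 3 are called the fibroblast clusters below. The largest, with 53 cells, was led by Ecrg4, Clu, Krtdap, Prg4, Atp1b1, Mgp, Ptgds, Timp1, Crabp2 and Slc47a1 and is called arachnoid fibroblast-like from the markers Ptgds, Crabp2 and Slc47a1. The name rests on few markers and is used as a label only. Mgp, also among the leading genes, is instead a dural and adventitial marker. Of the 10 listed arachnoid fibroblast markers, Aldh1a2 and Slc6a20a had 0 UMIs there. Ptgds was found in 23 and Igfbp2 in 4 of the 53 cells. At a finer clustering (resolution 1) these cells split into groups of 27, 16, 9 and 1, and none met the naming rule. The group of 27 was led by Comp, Chad and Ecrg4. Its leading genes held 2 tendon markers and 1 marker each of the arachnoid, the dural and adventitial and the bone and cartilage lists. The group of 16 was led by Krtdap, Msln and Cldn11, with 2 nerve root and perineurium markers and 1 arachnoid barrier marker among its leading genes. A second, with 31 cells, was led by Pi16, Fbn1, Clec3b, Lum, Ccl11 and Dcn, genes known from adventitial and dural fibroblasts elsewhere, but held only 2 of the 12 markers listed for those cells among its leading genes and stays unnamed. The smallest, with 17 cells, was led by Slc6a13, a GABA and taurine transporter of leptomeningeal cells, Slc7a11, Spp1 and Igfbp2. Its leading genes held 2 astrocyte markers, Slc1a3 and Gjb6, against 1 arachnoid one, so it stays unnamed and is called the Slc6a13-led cluster.

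The other 58 cells lay in clusters of other lineages. An endothelial-like cluster of 20 cells had a median of 21612.5 UMIs per cell, a pericyte-like cluster held 18 cells, and an unnamed cluster of 20 cells had 3 Schwann and 3 oligodendrocyte markers among its leading genes and is called the glial-marker cluster. Dcn, the proteoglycan decorin, was found in 31 of 31 cells of the Pi16-led cluster at 27667 CPM (a gene's UMIs scaled to the total UMIs of the cells summed). It stood at 16244 CPM in the Slc6a13-led cluster, 3919 CPM in the arachnoid-like cluster, 816 CPM in the endothelial-like cluster and 249 CPM in the pericyte-like cluster, and had 0 UMIs in the glial-marker cluster. Slc6a13 had 156 UMIs over all 17 cells of the cluster it led and 1 UMI in the 53 arachnoid-like cells. Ecrg4, a secreted peptide of the choroid plexus and leptomeninges, was found in 50 of the 53 arachnoid-like cells at 5674 CPM. It stood at 78.0 CPM in the Pi16-led and 29.9 CPM in the Slc6a13-led cells. Per library, the 12 listed dural and adventitial markers summed to 20528 to 28254 CPM in arachnoid-like and 5976 to 18642 CPM in Pi16-led cells. Mgp alone stood at 17180 CPM in the arachnoid-like cells of all libraries. The 10 arachnoid markers summed to 1209 to 4093 CPM in arachnoid-like and 160 to 877 CPM in Pi16-led cells. The arachnoid-like cells thus held more of the dural and adventitial list than of the arachnoid list.

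**Figure D1:**
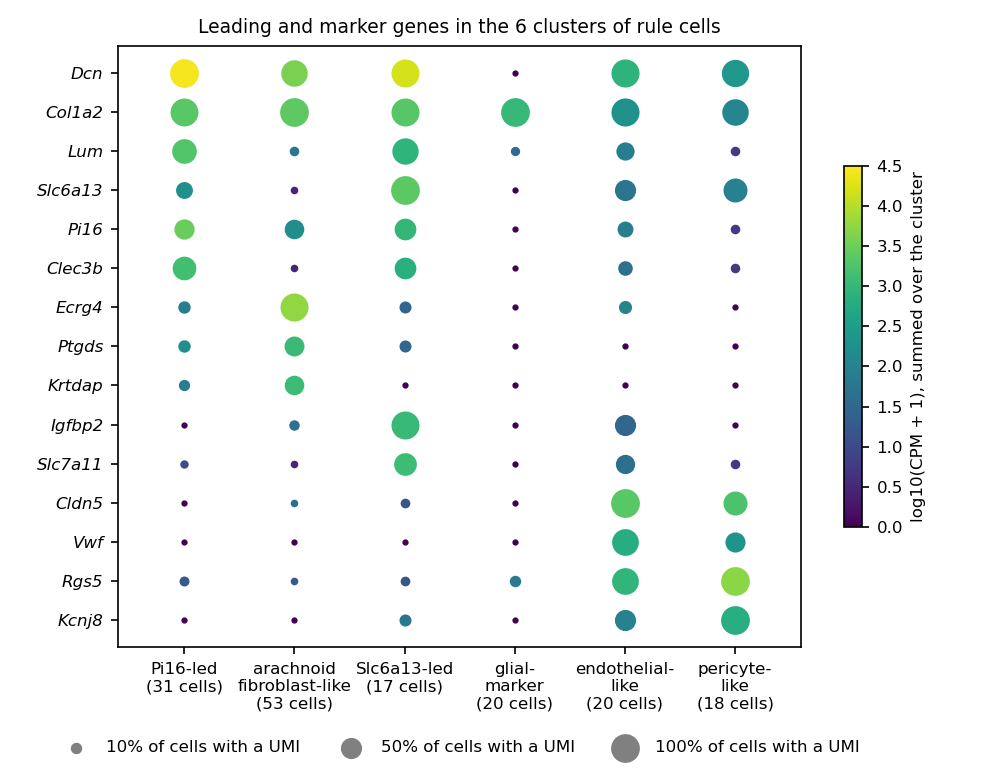
Level of 15 genes (rows) in the 6 clusters of rule cells (columns), with colour for log10(CPM + 1) over the summed cells and dot size for the percentage of cells with a UMI. The 53 arachnoid fibroblast-like cells, the 31 Pi16-led and the 17 Slc6a13-led cells make up the fibroblast clusters, and 58 of the 159 cells lie in the endothelial-like, glial-marker and pericyte-like clusters.

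Cells near the limit of the rule were mostly of those other lineages. Of the 22 members with 5 or 6 UMIs of the 6 genes, 3 lay in fibroblast clusters and 19 drew at least 0.5% of their UMIs from markers of another lineage. Of the 91 members with more than 20 such UMIs, 81 lay in fibroblast clusters. Just outside the rule, 35 cells had 3 or 4 UMIs, and 33 of them had at least 0.5% of another lineage. The median was 76 UMIs of the 6 genes in cells of the fibroblast clusters and 8.5 in the other members. Among markers of pial fibroblasts, the organic acid transporters Slc22a6 and Slc13a3 had 0 UMIs in the fibroblast clusters, and of the arachnoid barrier list Krt8, Krt18 and Upk1b had 0.

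The share of kept cells that met the rule was 1.15% in the library labelled CD8 KO (59 of 5135 cells, exact Clopper-Pearson 95% interval 0.876% to 1.48%), 0.331% in the 33-week library (16 of 4830, 0.189% to 0.537%), 0.884% in the 30-week P301S hom library (42 of 4751, 0.638% to 1.19%) and 0.732% in the P301S neg library (42 of 5738, 0.528% to 0.988%). The intervals cover counting error only. Restricted to the fibroblast clusters, the shares were 0.545% (28 cells, 0.363% to 0.787%), 0.269% (13 cells, 0.143% to 0.460%), 0.674% (32 cells, 0.461% to 0.95%) and 0.488% (28 cells, 0.324% to 0.704%), in the same order of libraries. With that restriction the library labelled CD8 KO was no longer above the 30-week P301S hom library, since 31 of its 59 cells lay in clusters of other lineages. The 33-week library had the lowest share by either count. In dissociated tissue, fewer cells of a type and poorer release of that type cannot be told apart.

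**Figure D2:**
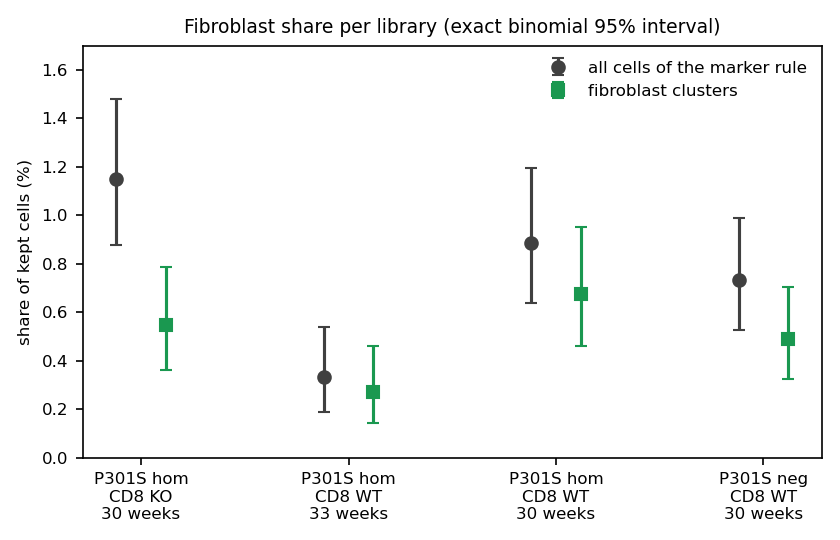
Share of kept cells, in percent, that met the fibroblast rule and that lay in the fibroblast clusters, per library, with exact 95% binomial intervals. By the rule the shares run between 0.331% in the 33-week library and 1.15% in the library labelled CD8 KO, and in the fibroblast clusters between 0.269% and 0.674%.

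The fibroblast clusters held 47.5% of the rule cells of the library labelled CD8 KO, 81.2% of those of the 33-week library, 76.2% of those of the 30-week P301S hom library and 66.7% of those of the P301S neg library. Because of this difference, gene values below are for the 101 cells of the fibroblast clusters unless stated. These cells were similar in depth, with medians of 8364, 6627, 6032 and 5881 UMIs per cell in that order of libraries, and in mitochondrial share, with medians of 5.48%, 6.22%, 6.04% and 5.33%. Their makeup differed. Arachnoid-like cells were 67.9% of them in the library labelled CD8 KO, 61.5% in the 33-week library, 50% in the 30-week P301S hom library and 35.7% in the P301S neg library. Pi16-led cells were 21.4%, 23.1%, 31.2% and 42.9% of them. The part of this makeup in the gene differences below was not tested, and values within the arachnoid-like cluster are given where they bear on one.

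Across all 4 libraries, 376 genes were over 5 times higher in fibroblast-rule cells than in the other kept cells. The 15 with the highest levels after the rule genes were mostly secreted proteins. Mgp, matrix Gla protein, which inhibits calcification of matrix, stood at 5254, 15624, 7819 and 4625 CPM in the rule cells of the library labelled CD8 KO, the 33-week, the 30-week P301S hom and the P301S neg libraries. Myoc, myocilin, a secreted glycoprotein also made in the eye's trabecular meshwork, stood at 1755, 3407, 2022 and 522 CPM, against 0.191, 0.150, 0.147 and 0.177 CPM in the other kept cells of those libraries. Also in this set were the actin-severing protein Gsn, the lipocalin Apod, the insulin-like growth factor binding proteins Igfbp5 and Igfbp6, the proteoglycan Bgn, the C1 inhibitor Serping1, the microfibril protein Mfap5, the procollagen enhancer Pcolce, Serpinf1 (PEDF), Smoc2, Nbl1, the lubricin gene Prg4 and the peptidase inhibitor Pi16. Each of these 15 genes except Prg4 stood highest in the rule cells of the 33-week library, which also had the fewest cells of other lineages. Prg4 stood at 299, 314, 979 and 1271 CPM.

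Transcripts of the CD8 chains were looked at first. Cd8a (chr6:71373427-71379173, mm10), a T cell co-receptor chain, had 46 UMIs in 18 of 59 rule cells of the library labelled CD8 KO and 0 UMIs in the rule cells of the other 3 libraries. Among rule cells, Cd8a UMIs were thus found in the library labelled CD8 KO alone. Of these 46 UMIs, 39 were in clusters of other lineages, including 31 UMIs in 8 of 9 endothelial-like cells, and 7 UMIs were in 5 of 28 fibroblast-cluster cells, with 29.2 CPM. Other kept cells there held 32.0 CPM, close to the level in the fibroblast clusters. Those of the 33-week, the 30-week P301S hom and the P301S neg libraries held 2.19, 2.14 and 1.46 CPM. Cd8b1, the partner chain, and Cd3e, of the T cell receptor complex, had 0 UMIs in every rule cell. Neither the CD8 gene that was disrupted nor the disrupted part is stated, so a 3' tag does not check the knockout. Mapt, the mouse tau gene, had 1 UMI in the fibroblast clusters of the library labelled CD8 KO and 0 in those of the other 3.

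A few single cells carried most of the transcripts of some genes, and comparisons of so few cells rest on them. In 9 fibroblast-cluster cells, 1 cell held at least 80% of the UMIs of a gene that had at least 50 UMIs in its library. A cell of the library labelled CD8 KO with 12735 UMIs held 168 of 170 UMIs of Cxcl9 and 151 of 151 of Ccl5, chemokines that attract T cells, together with 79 of 87 of the heme oxygenase gene Hmox1 and 335 of 536 of the small heat shock gene Cryab. Another cell there held 158 of 166 UMIs of the macrophage lysozyme gene Lyz2. In the 30-week P301S hom library, a cell with 9593 UMIs held 490 of 491 UMIs of Cytl1, a secreted protein of cartilage, 100 of 112 of Cilp, an intermediate layer protein of cartilage, and 73 of 74 of Hbegf, with 334 of 586 of the fibronectin gene Fn1.

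A further cell of that library, with 15121 UMIs, held 191 of 209 UMIs of Mfge8, 68 of 74 of the Wnt inhibitor Wif1 and 251 of 443 of Comp, cartilage oligomeric matrix protein, and another held 40 of 50 of the MHC class II chain gene Cd74. In the P301S neg library, 1 cell held 727 of 732 UMIs of S100a8, 753 of 763 of S100a9 and 167 of 167 of Camp, genes of neutrophil granules, and another held 49 of 56 of Htra4 and 457 of 623 of Prg4. In the 33-week library, 1 cell held 54 of 57 UMIs of the adhesion gene Vcam1 and 71 of 82 of Timp1, and another 51 of 59 of Cxcl14. Whether such a cell is a rare state, a cell of another tissue or a droplet of mixed content was not tested. All values below are given with these cells and, where they matter, without all 9.

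**Figure D3:**
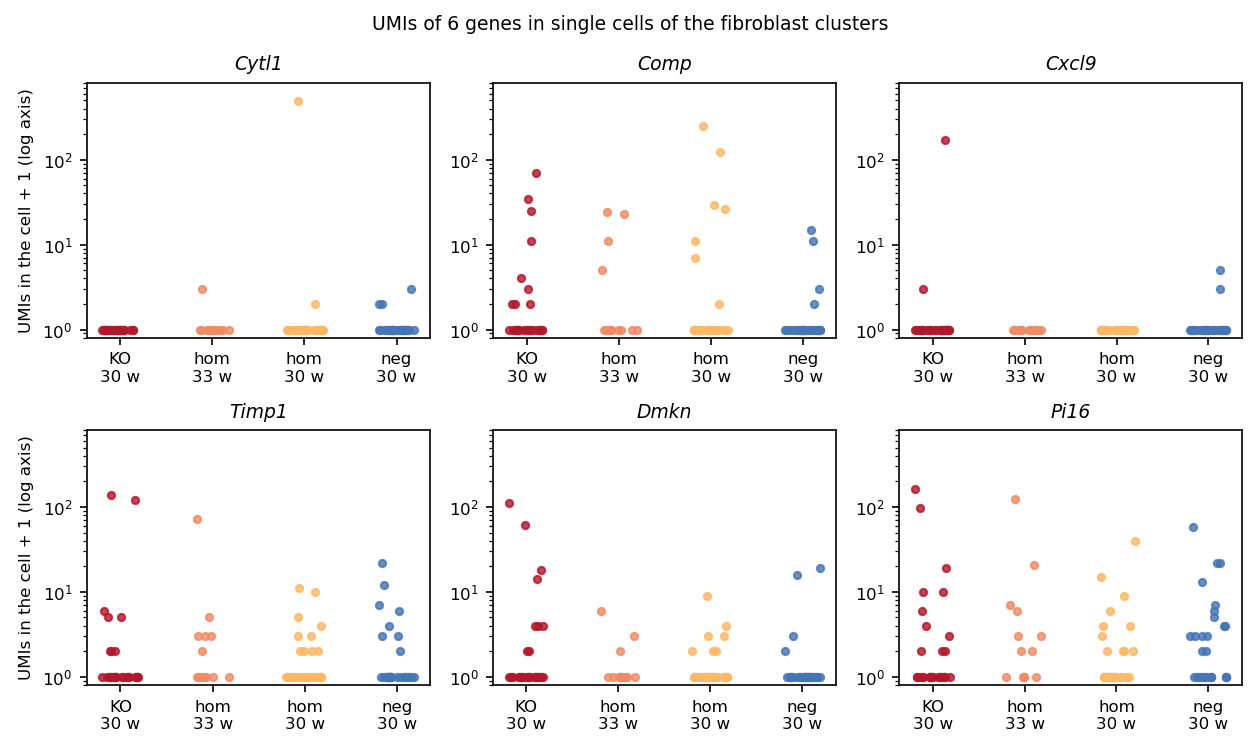
UMIs of 6 genes in single cells of the fibroblast clusters, per library, as UMIs + 1 on a log axis, 1 dot per cell. Cytl1 in the 30-week P301S hom library and Cxcl9 in the library labelled CD8 KO rest on 1 cell each, with 490 and 168 UMIs. Comp, Timp1, Dmkn and Pi16 are found in more cells, but a few hold most of their UMIs, such as 251 and 122 of 443 for Comp in the 30-week P301S hom library and 71 of 82 for Timp1 at 33 weeks.

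The P301S hom library at 30 weeks was set against the P301S neg library for the transgene. Over the fibroblast clusters, the homozygous cells held more RNA of immediate early genes and of the type VI collagen gene Col6a2, and less of Ly6a, Fbln2, Fbn1 and Bmp4. Of 1377 genes with at least 50 UMIs in the 2 libraries together, 132 were at least 1.5-fold higher (9.59%) and 184 at least 1.5-fold lower (13.4%), and the median log2 ratio was -0.04. Over all rule cells, 251 of 3101 genes were higher (8.09%) and 433 lower (14%). With no replicate these are differences between 2 libraries of 2 pooled cords each. Both further comparisons, of CD8 KO and of age, are set against the same 30-week P301S hom library, so the 3 comparisons are not independent.

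Immediate early genes, transcription factors and regulators that cells switch on within minutes of a stimulus and also during tissue dissociation, were the list with the most members on one side. Of 27 listed genes, 22 passed the count filter, 14 were at least 1.5-fold higher and 0 lower, with a median log2 ratio of 0.93. In the other kept cells of the same 2 libraries the same 22 genes had a median of -0.45, with 0 higher and 6 lower. Fos (chr12:85473890-85477273) had 1165 UMIs in 22 of 32 P301S hom cells and 562 UMIs in 18 of 28 P301S neg cells, or 5309 and 2823 CPM, a ratio of 1.88 (exact conditional 95% interval 1.7 to 2.08, counting error only). Nr4a2, an orphan nuclear receptor, had 79 UMIs in 14 P301S hom cells and 12 UMIs in 5 P301S neg cells, a ratio of 5.97 (3.23 to 12). Maff, a small Maf factor, had 82 UMIs in P301S hom and 9 UMIs in P301S neg cells, a ratio of 8.27 (4.15 to 18.7), and Zfp36, which marks cytokine mRNAs for decay, had 174 UMIs in P301S hom and 50 UMIs in P301S neg cells, a ratio of 3.16 (2.29 to 4.41). Junb stood at 2857 CPM in P301S hom cells and 1663 CPM in P301S neg cells, and Nr4a1 at 497 CPM in P301S hom and 196 CPM in P301S neg cells. Jund, which is present in most resting cells, stood at 1422 CPM in both.

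The immediate early genes as a whole took 2.99% of UMIs in the P301S hom fibroblast clusters and 1.77% in the P301S neg ones. Per cell, the share ran from 0.101% through a median of 1.15% to 14.3% in the P301S hom cells, and from 0.0425% through 0.920% to 6.73% in the P301S neg cells, so the 2 sets of cells overlapped over most of their range. Without the 9 cells described above, 16 of 22 genes were higher and the median was 1.0. Among female cells of both libraries the median was 0.84, with 13 of 21 higher, and within the arachnoid-like cluster it was 1.19, with 16 of 21 higher. At the finer clustering, 9 arachnoid-like cells of all libraries formed a group led by Myoc, Maff and Cebpb. It held 3 of the P301S hom cells and 0 P301S neg cells. Makeup thus differed within this cluster too, and its part in the difference was not tested. Over all rule cells the difference was not there: the median was 0.16, with 5 of 24 higher and 1 lower. The rule cells take in the endothelial-like, pericyte-like and glial-marker clusters, which pooled together drew 4.92% to 5.68% of their UMIs from this list.

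**Figure D4:**
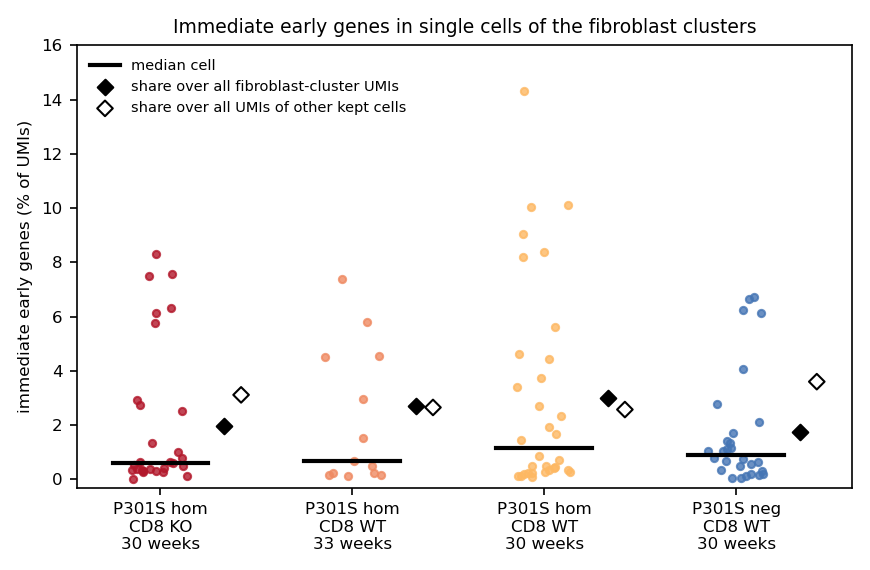
Share of UMIs from the 27 immediate early genes in each fibroblast-cluster cell, in percent, by library, with a line at the median cell and diamonds for the share over all UMIs of the fibroblast clusters (filled) and of the other kept cells (open). Medians are 0.623% in the library labelled CD8 KO, 0.689% in the 33-week library, 1.15% in the 30-week P301S hom library and 0.920% in the P301S neg library, and the cells overlap widely.

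Many immediate early promoters carry the core of the cAMP response element, TGACG, which CREB and ATF factors bind. Of the 14 higher genes, 5 are shown because their promoters hold it close to the start of transcription (RefSeq, GRCm38.p6, 170 bases before the start, 5′ to 3′ on the gene's strand, capitals marking TGACG, its complement CGTCA or the full element TGACGTCA). They lie at chr12:85473720-85473889 (+) for Fos, chr8:84978749-84978918 (-) for Junb, chr15:101266676-101266845 (+) for Nr4a1, chr2:57124004-57124173 (-) for Nr4a2 and chr1:134079156-134079325 (-) for Btg2.
Fos: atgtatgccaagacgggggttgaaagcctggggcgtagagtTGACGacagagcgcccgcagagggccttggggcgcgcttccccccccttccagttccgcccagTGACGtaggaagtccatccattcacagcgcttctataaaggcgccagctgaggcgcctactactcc
Junb: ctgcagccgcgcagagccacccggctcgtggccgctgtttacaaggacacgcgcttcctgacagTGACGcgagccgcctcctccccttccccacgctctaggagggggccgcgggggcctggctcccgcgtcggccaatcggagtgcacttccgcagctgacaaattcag
Nr4a1: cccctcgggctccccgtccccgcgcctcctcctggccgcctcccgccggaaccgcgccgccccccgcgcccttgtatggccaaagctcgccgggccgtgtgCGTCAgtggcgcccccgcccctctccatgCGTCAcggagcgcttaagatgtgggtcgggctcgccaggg
Nr4a2: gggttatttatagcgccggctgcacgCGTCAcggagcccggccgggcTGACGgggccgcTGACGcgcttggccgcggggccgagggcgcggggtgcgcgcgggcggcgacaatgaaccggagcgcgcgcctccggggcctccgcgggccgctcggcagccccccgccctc
Btg2: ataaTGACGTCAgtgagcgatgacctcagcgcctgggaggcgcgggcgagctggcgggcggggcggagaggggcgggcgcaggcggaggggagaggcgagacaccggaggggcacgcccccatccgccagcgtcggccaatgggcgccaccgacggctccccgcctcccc
Searched on both strands over 250 bases before the start, TGACG was present for 10 of the 13 higher genes with a promoter entry (76.9%) and for 12 of 19 entries among the 22 counted genes of the list (63.2%), against 19.8% of all 27025 genes and 17.8% of all 32851 promoters in the table. The full element TGACGTCA, which contains TGACG, was present for 2 of the 13, for 1.77% of all genes and in 1.55% of all promoters. A match is a run of letters and no evidence of binding.

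Collagen genes were higher in the P301S hom fibroblasts, in part through the 9 cells. Col1a1, Col1a2 and Col3a1 belong to the rule that chose the cells, so their values are a description: Col1a1 had 311 UMIs in P301S hom and 150 UMIs in P301S neg cells (1417 and 754 CPM). Col1a2 had 590 UMIs in P301S hom and 263 UMIs in P301S neg cells (2689 and 1321 CPM), and Col3a1 had 353 UMIs in P301S hom and 191 UMIs in P301S neg cells (1609 and 959 CPM). Outside the rule, Col5a2, a chain of the fibrils' core, had 74 UMIs in P301S hom and 31 UMIs in P301S neg cells, a ratio of 2.17 (1.41 to 3.41). The chains of type VI collagen, a beaded filament around fibrils, were Col6a1 with 214 UMIs in P301S hom and 123 UMIs in P301S neg cells, a ratio of 1.58 (1.26 to 1.99), Col6a2 with 255 in P301S hom and 98 in P301S neg cells, a ratio of 2.36 (1.86 to 3.01), and Col6a3 with 78 in P301S hom and 37 in P301S neg cells, a ratio of 1.91 (1.28 to 2.91). The ratios without the 9 cells were 1.20 for Col5a2 (0.719 to 2.0), 1.29 for Col6a1 (0.995 to 1.67), 2.30 for Col6a2 (1.77 to 3.0) and 1.59 for Col6a3 (1.01 to 2.53), so Col6a2 and Col6a3 stayed past 1.5-fold.

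By list, 4 of 6 beaded and network collagens, none of them a rule gene, were at least 1.5-fold higher and 0 lower, with a median of 0.70. When the 9 cells were left out, 2 of 5 were higher and the median was 0.36. Of the 5 fibrillar collagens with enough UMIs only 2 lay outside the rule, and 1 of them, Col5a2, was higher. Within the arachnoid-like cluster, where 14% of 820 genes were higher and 10.9% lower, Col6a2 stood at 209 UMIs in P301S hom and 65 in P301S neg cells, or 153 and 51 without the 9 cells. That cluster held 154715 UMIs in P301S hom and 107365 in P301S neg cells, the 9 cells included. Col5a2 stood there at 53 UMIs in P301S hom and 11 in P301S neg cells, or 16 and 10 without them. Basement membrane genes had 0 of 7 past 1.5-fold in either direction, with a median of -0.14: Col4a1, of the network collagen, had 46 UMIs in P301S hom and 41 UMIs in P301S neg cells, Nid1, the linker nidogen, 51 in P301S hom and 48 in P301S neg cells, and Hspg2, perlecan, 43 in P301S hom and 43 in P301S neg cells. Other kept cells of these libraries had a median of -1.04 for the fibrillar collagens, of which they hold under 0.01% of UMIs.

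The highest ratios of the transgene comparison largely came from the single cells above. Cytl1 had 491 UMIs in P301S hom and 4 UMIs in P301S neg cells, but 1 cell held 490 of them, and without the highest cell of each library 1 UMI was left in P301S hom and 2 in P301S neg cells. Wif1, Mfge8 and Cilp took 91.9%, 91.4% and 89.3% of their P301S hom UMIs from 1 cell. Chad, chondroadherin, with 207 UMIs in 7 P301S hom cells and 10 UMIs in 3 P301S neg cells, and Comp, with 443 UMIs in 7 P301S hom cells and 27 UMIs in 4 P301S neg cells, were found in more cells. Of these, 2 of the 9 cells held most of the P301S hom UMIs: without the 9, Comp had 70 UMIs in P301S hom and 25 in P301S neg cells, a ratio of 2.72 (1.7 to 4.48), and Chad had 51 in P301S hom and 10 in P301S neg cells, a ratio of 4.95 (2.48 to 10.9). Those genes mark cartilage and tendon. The bone and cartilage lineage list summed to 3609 CPM in the P301S hom fibroblast clusters and 698 CPM in the P301S neg ones, with Bglap, Bglap2, Dmp1 and Phex at 0. Without the 9 cells it took 0.114% of UMIs in P301S hom cells and 0.0760% in P301S neg cells, and the tendon lineage list took 0.0444% in P301S hom and 0.0771% in P301S neg cells.

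Lower in the P301S hom fibroblasts was Ly6a, the surface protein Sca-1 of adventitial progenitors, with 70 UMIs in 9 of 32 P301S hom cells and 297 UMIs in 13 of 28 P301S neg cells, 4.68-fold lower (interval 3.59 to 6.16). Within the arachnoid-like cluster it had 29 of 154715 UMIs in P301S hom and 24 of 107365 UMIs in P301S neg cells. Ly6a is also an endothelial gene, and the 8 endothelial markers moved the same way, at 237 CPM in P301S hom and 1090 CPM in P301S neg fibroblast-cluster cells, with Vwf at 0. Their part in the difference was not tested. Fbln2, fibulin-2, had 23 UMIs in P301S hom and 77 UMIs in P301S neg cells, 3.69-fold lower (2.29 to 6.16), and Fbn1, fibrillin-1 of the microfibril, 29 UMIs in P301S hom and 87 UMIs in P301S neg cells, 3.31-fold lower (2.15 to 5.22). The elastic fibre and microfibril list as a whole had 1 of 9 higher and 3 lower, with a median of -0.32 (-0.26 without the 9 cells). Fbn1 and Fbln2 lead the Pi16-led cluster, which was 31.2% of P301S hom and 42.9% of P301S neg fibroblast-cluster cells. Bmp4, a BMP ligand, had 13 UMIs in 10 P301S hom cells and 49 UMIs in 13 P301S neg cells, 4.15-fold lower (2.22 to 8.35). Igfbp2 had 11 UMIs in P301S hom and 59 UMIs in P301S neg cells, 5.91-fold lower (3.08 to 12.5), and Ifi27l2a, an interferon-induced gene, 21 in P301S hom and 102 in P301S neg cells, of which 1 P301S neg cell held 73.5%. Thbs4, a tendon thrombospondin, had 0 UMIs in P301S hom cells and 54 UMIs in 5 P301S neg cells, of which 1 cell held 43. Rgcc, a cell cycle regulator induced by complement, had 31 UMIs in P301S hom and 200 in P301S neg cells, and 1 P301S neg cell held 71.5% of its count.

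Immune lists differed between the 2 definitions of the cells. Over all rule cells, MHC class I presentation genes had 7 of 12 lower and 0 higher with a median of -0.71, and interferon gamma response genes had 5 of 9 lower with a median of -1.12. Igtp, a GTPase induced by interferon gamma, had 9 UMIs in P301S hom and 58 UMIs in P301S neg rule cells, and H2-Q7, a class Ib gene, 19 in P301S hom and 94 in P301S neg cells. In the fibroblast clusters 1 of 7 MHC class I genes was lower and 0 higher, with a median of -0.29, and 1 interferon gamma gene had enough UMIs to be counted. H2-Q7 had 3 UMIs in P301S hom and 6 UMIs in P301S neg cells there and Igtp 4 in P301S hom and 5 in P301S neg cells. The endothelial-like cluster held most of the rest, with 10 UMIs of H2-Q7 in 3 P301S hom cells and 76 in 7 P301S neg cells, and with 2 UMIs of Igtp in the P301S hom and 49 in the P301S neg cells.

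Solute carriers of leptomeningeal fibroblasts had 4 of 10 higher and 1 lower, with a median of 0.28. Slc47a1, the organic cation exporter MATE1, had 121 UMIs in P301S hom and 57 UMIs in P301S neg cells, a ratio of 1.93 (1.39 to 2.69), while Slc7a11, the cystine-glutamate exchanger, had 17 in P301S hom and 53 in P301S neg cells, 3.44-fold lower (1.96 to 6.33). Crabp2, a carrier of retinoic acid, had 105 UMIs in P301S hom and 69 UMIs in P301S neg cells. Among glucocorticoid-induced genes 5 of 10 were higher and 2 lower: Tsc22d3 (GILZ) had 221 UMIs in P301S hom and 120 UMIs in P301S neg cells, a ratio of 1.67 (1.33 to 2.10) that was 1.32 without the 9 cells, Fkbp5 had 36 in P301S hom and 14 in P301S neg cells, a ratio of 2.33 (1.23 to 4.68), and the metallothionein Mt1 had 526 in P301S hom and 200 in P301S neg cells, a ratio of 2.39 (2.02 to 2.82). The cholesterol and lipid carriers had 0 of 6 higher and 1 lower.

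**Figure D5:**
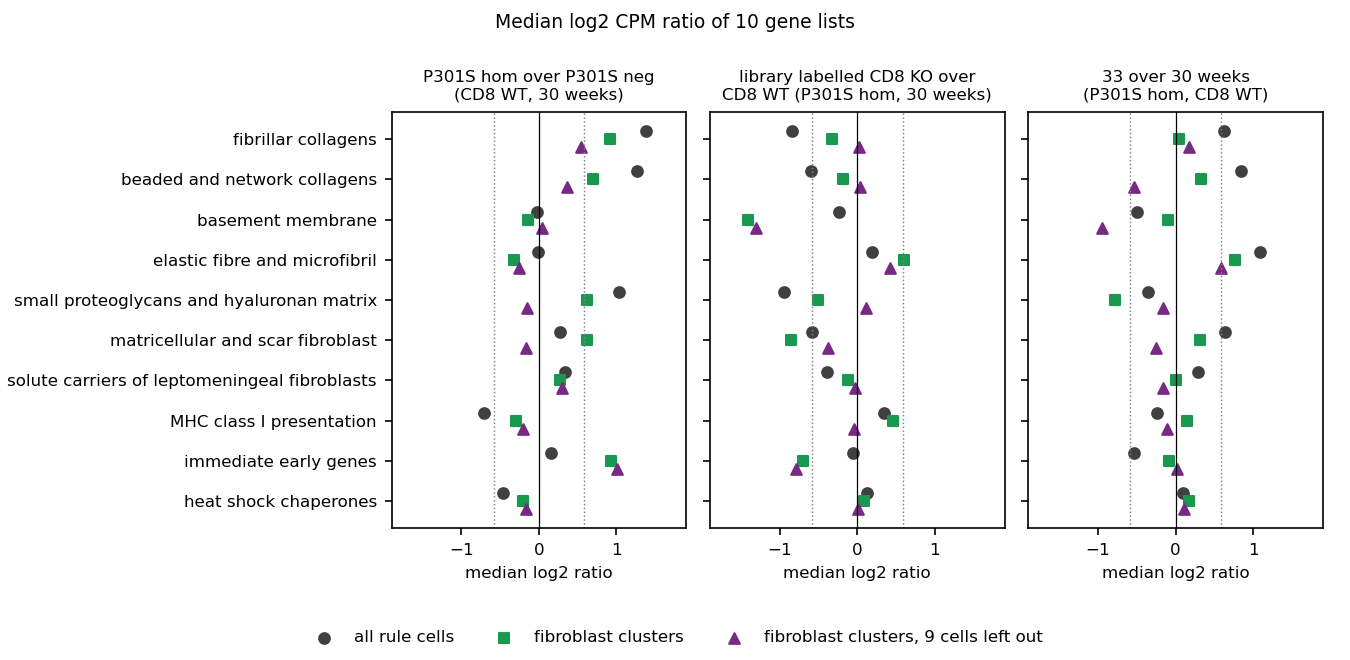
Median log2 CPM ratio of 10 gene lists in the transgene, CD8 KO and age comparisons, for all fibroblast-rule cells, for the fibroblast clusters and for those clusters without the 9 cells; dotted lines mark 1.5-fold. The fibrillar collagen and small proteoglycan lists include rule genes. Immediate early genes stand at 0.93 for the transgene in the fibroblast clusters and at -0.70 for the library labelled CD8 KO, and basement membrane genes at -1.40 for the library labelled CD8 KO.

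The library labelled CD8 KO was set against the 30-week P301S hom library, which also differed from it in sex. Fibroblast-cluster cells there held more RNA of Cst3 and Igfbp6 and, mostly in a few cells, of Dmkn, Timp1 and Ptgds, and less of basement membrane genes, of Cxcl12 and of immediate early genes. Of 1498 genes with enough UMIs, 204 were at least 1.5-fold higher (13.6%) and 143 lower (9.55%), with a median log2 ratio of 0.08. Over all rule cells 333 of 3298 were higher (10.1%) and 233 lower (7.06%). Cells of the 2 libraries are called KO-labelled and CD8 WT cells in this comparison. Every fibroblast-cluster cell with a sex call was male in the library labelled CD8 KO (19 of 19) and female in the 30-week P301S hom library (29 of 29).

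Basement membrane genes had the lowest median of the lists with at least 5 counted members, -1.40, with 4 of 5 at least 1.5-fold lower and 0 higher. Col15a1 (chr4:47208161-47313167), a collagen of perivascular basement membranes, had 10 UMIs in 7 of 28 cells of the library labelled CD8 KO and 73 UMIs in 15 of 32 cells of the 30-week P301S hom library, 7.98-fold lower (interval 4.10 to 17.3). Hspg2 had 17 UMIs in KO-labelled and 43 UMIs in CD8 WT cells, 2.76-fold lower (1.54 to 5.17), Col4a1 had 19 in KO-labelled and 46 in CD8 WT cells, 2.65-fold lower (1.52 to 4.78), and Nid1 had 30 in KO-labelled and 51 in CD8 WT cells, 1.86-fold lower (1.16 to 3.02). Without the 9 cells the median was -1.31. As a share of UMIs, the 17 listed genes took 0.0897%, 0.149%, 0.175% and 0.193% in the library labelled CD8 KO, the 33-week, the 30-week P301S hom and the P301S neg fibroblast clusters, so the library labelled CD8 KO was the lowest of the 4. Without the 9 cells it stood at 0.0861%, against 0.0810% in the 33-week library, 0.193% in the 30-week P301S hom library and 0.197% in the P301S neg library. Within the arachnoid-like cluster 1 basement membrane gene had enough UMIs to be counted, with a log2 ratio of 0.30. Per cell the medians were 0.0623%, 0.0977%, 0.101% and 0.196%, and the ranges overlapped. Pericyte markers moved the same way, at 183, 475, 711 and 874 CPM in that order of libraries, with Atp13a5 and Higd1b at 0 in all 4, and their part in this difference was not tested.

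Immediate early genes were lower, with 13 of 23 past 1.5-fold and 0 higher and a median of -0.70 (-0.79 without the 9 cells). Fos had 758 UMIs in the library labelled CD8 KO and 1165 in the 30-week P301S hom library, 1.68-fold lower (1.53 to 1.84), Junb 389 in KO-labelled and 627 in CD8 WT cells, 1.76-fold lower (1.55 to 2.0), and Dusp1, a phosphatase that ends MAP kinase signalling, 139 in KO-labelled and 223 in CD8 WT cells, 1.75-fold lower (1.41 to 2.18). Other kept cells had a median of 0.28 for the same genes. The direction did not hold with sex matched: male cells of the library labelled CD8 KO against the 4 male fibroblast-cluster cells of the 33-week library had a median of 1.61, with 19 of 20 genes higher. That contrast also differs in age.

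Of the higher genes, Cxcl9 had 170 UMIs and Ccl5 151 UMIs in the library labelled CD8 KO, against 0 in the 30-week P301S hom library, but rested on the single cell described above. Timp1, the tissue inhibitor of metalloproteinases 1 (X chromosome), had 272 UMIs in KO-labelled and 34 UMIs in CD8 WT cells, a ratio of 7.32 (5.11 to 10.8), with 137 and 119 of the 272 UMIs in a pair of cells. The ratio was 4.69 without the 9 cells, which include 1 of this pair (interval 3.04 to 7.50). Dmkn (chr7:30763756-30781063), dermokine, a secreted protein of stratified epithelia, had 211 UMIs in 9 of 28 KO-labelled cells and 18 UMIs in 7 of 32 CD8 WT cells, a ratio of 10.7 (6.62 to 18.5), and the same pair of cells held 60 and 110 of the 211. Ptgds, prostaglandin D synthase, a marker of arachnoid cells, had 466 UMIs in 8 KO-labelled cells and 101 UMIs in 9 CD8 WT cells, a ratio of 4.22 (3.40 to 5.29), with 50% and 46.5% in the highest cell of each. These 3 genes were found in about as many cells of either library, and most of each difference lay in a few cells.

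More evenly spread were Cst3, the secreted protease inhibitor cystatin C, with 1889 UMIs in 28 of 28 KO-labelled cells and 922 UMIs in 31 of 32 CD8 WT cells, a ratio of 1.88 (1.73 to 2.03), and Igfbp6 with 1044 UMIs in KO-labelled and 469 UMIs in CD8 WT cells, a ratio of 2.04 (1.82 to 2.28). Their log2 ratios without the highest cells were 0.93 and 0.96. The 12 macrophage markers also stood higher, at 605 CPM in KO-labelled and 346 CPM in CD8 WT fibroblast-cluster cells. Within the arachnoid-like cluster they stood at 343 CPM in KO-labelled and 368 CPM in CD8 WT cells. The part of macrophage RNA in the Cst3 difference was not tested. Krtdap, keratinocyte differentiation-associated protein, had 287 UMIs in KO-labelled and 82 UMIs in CD8 WT cells, a ratio of 3.20 (2.50 to 4.15). Within the arachnoid-like cluster alone, where 12.9% of 1048 genes were higher and 8.4% lower, KO-labelled cells held 208 UMIs of Dmkn, 273 of Krtdap and 441 of Ptgds, and CD8 WT cells held 18, 82 and 100. The cluster totals were 174702 UMIs in KO-labelled and 154715 in CD8 WT cells.

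Of MHC class I presentation genes, 3 of 7 counted members were past 1.5-fold higher and 0 lower, which did not hold without the 9 cells: H2-K1 had 290 UMIs in the library labelled CD8 KO and 102 in the 30-week P301S hom library, a ratio of 2.60 (2.07 to 3.29), H2-D1 had 294 in KO-labelled and 135 in CD8 WT cells, a ratio of 1.99 (1.62 to 2.46), and the light chain B2m 157 in KO-labelled and 80 in CD8 WT cells, a ratio of 1.80 (1.36 to 2.38). The list's median was 0.46, and -0.04 without the 9 cells, when 0 of 6 were past 1.5-fold and the ratios of these 3 genes were 1.32, 1.09 and 0.914. The highest cell of the library labelled CD8 KO took 3.42% of its UMIs from these genes, against a median of 0.321% there and 0.267% in the 30-week P301S hom library.

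Among matrix genes, Fn1 had 148 UMIs in KO-labelled and 586 UMIs in CD8 WT cells, 4.33-fold lower (3.61 to 5.22), but this rested on the 9 cells: without them it had 146 UMIs in KO-labelled and 102 UMIs in CD8 WT cells, a ratio of 1.24 (0.958 to 1.62). Prelp, a proteoglycan that anchors basement membranes to matrix, had 63 UMIs in KO-labelled and 156 UMIs in CD8 WT cells, 2.71-fold lower (2.01 to 3.69), or 1.39-fold lower without the 9 cells. The chemokine Cxcl12 had 27 UMIs in KO-labelled and 127 UMIs in CD8 WT cells, 5.14-fold lower (3.37 to 8.10). The 7-gene marrow stromal list that holds Cxcl12 stood at 395 CPM in KO-labelled and 284 CPM in CD8 WT cells of the arachnoid-like cluster. In the Pi16-led cluster the list stood at 513 and 2715 CPM, and in the Slc6a13-led cluster at 491 and 1693 CPM. Abca8a, a lipid transporter of the ABC family, had 5 UMIs in KO-labelled and 47 in CD8 WT cells, 10.3-fold lower (4.10 to 33.1), with 2 and 47 UMIs left without the 9 cells. Elastic fibre genes split, with 5 of 9 higher and 2 lower and a median of 0.60. Mfap5 had 365 UMIs in KO-labelled and 190 UMIs in CD8 WT cells, a ratio of 1.76 (1.47 to 2.11), and Mfap4 had 121 in KO-labelled and 32 in CD8 WT cells, a ratio of 3.46 (2.33 to 5.28), while Fbln5 had 21 in KO-labelled and 36 in CD8 WT cells. Male KO-labelled cells were also set against the 4 male fibroblast-cluster cells of the 33-week library, a contrast that differs in age too. There the elastic fibre list had a median of -1.13, with 1 of 5 higher.

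Fibrillar collagens had 0 of 4 higher and 1 lower in the library labelled CD8 KO, with a median of -0.32 that became 0.02 without the 9 cells, but 3 of these 4 are rule genes. Small proteoglycans and hyaluronan matrix genes outside the rule had 0 of 6 higher and 3 lower, with a median of -0.42 that became 0.70, with 3 of 5 higher, without the 9 cells. Over all rule cells the fibrillar collagens had a median of -0.84, where clusters of other lineages held 31 of 59 cells from the library labelled CD8 KO, against 10 of 42 from the 30-week P301S hom library. Solute carriers had 0 of 8 higher and 1 lower, the rule gene Slc6a13 with 42 UMIs in KO-labelled and 63 UMIs in CD8 WT cells, and the heat shock list had 1 of 10 higher.

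At 33 weeks against 30 weeks, both P301S hom and CD8 WT, 13 fibroblast-cluster cells stood against 32. The older library held more RNA of Cst3, of the microfibril genes Mfap5 and Mfap4 and, mostly in 1 cell, of Fbn1, and less of Fbln1 and Col15a1. Of 976 genes with enough UMIs, 101 were at least 1.5-fold higher (10.3%) and 112 lower (11.5%), with a median log2 ratio of 0.04. Over all rule cells, 209 of 1577 were higher (13.3%) and 316 lower (20%), and the lower ones named there were largely vascular, such as the claudin Cldn5 with 2 UMIs at 33 weeks and 183 UMIs at 30 weeks and the pericyte gene Rgs5 with 9 at 33 weeks and 326 at 30 weeks. The rule cells of the 33-week library held 1 endothelial-like and 0 pericyte-like cells, and those of the 30-week P301S hom library 3 of each.

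Elastic fibre and microfibril genes had 4 of 8 higher and 2 lower, with a median of 0.77 (0.59 without the 9 cells). Mfap5 had 252 UMIs in 11 of 13 cells at 33 weeks and 190 UMIs in 21 of 32 cells at 30 weeks, or 2495 and 866 CPM, a ratio of 2.88 (2.38 to 3.50). Mfap4 had 58 UMIs at 33 weeks and 32 UMIs at 30 weeks, a ratio of 3.94 (2.51 to 6.27) that was 2.47 without the 9 cells, and Fbn1 had 47 at 33 weeks and 29 at 30 weeks, a ratio of 3.52 (2.17 to 5.8), although 63.8% of its UMIs at 33 weeks came from 1 cell. Fbln1 ran the other way, with 17 UMIs at 33 weeks and 75 UMIs at 30 weeks, 2.03-fold lower (1.19 to 3.67). Collagen processing genes had 4 of 7 higher and 0 lower, with a median of 0.62: Pcolce, which speeds removal of the procollagen end, Plod2, a lysyl hydroxylase, Loxl1, which crosslinks elastin, and Crtap, of the prolyl hydroxylation complex. Of these 7, 3 had enough UMIs without the 9 cells, with 1 higher and a median of 0.04.

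Cst3 had 1308 UMIs in 13 of 13 cells at 33 weeks and 922 UMIs in 31 of 32 cells at 30 weeks, or 12950 and 4202 CPM, a ratio of 3.08 (2.83 to 3.36), with a log2 ratio of 1.27 without the highest cells. The 12 macrophage markers moved the same way, at 515 CPM at 33 weeks and 346 CPM at 30 weeks. In the arachnoid-like cluster they stood at 578 and 368 CPM. Their part in the Cst3 difference was not tested. Pi16 had 160 UMIs at 33 weeks and 78 UMIs at 30 weeks, a ratio of 4.46 (3.38 to 5.92), with 76.9% of the older library's count in 1 cell. Timp1 and Vcam1, higher at 33 weeks by count, lay mostly in 1 cell, and the log2 ratio of Timp1 without the highest cells was -0.01. Small proteoglycans outside the rule had 4 of 6 lower and 0 higher, with a median of -0.65, and 0 of 3 lower with a median of 0.14 without the 9 cells. Dcn, a rule gene, had 665 UMIs at 33 weeks and 2701 at 30 weeks, 1.87-fold lower (1.72 to 2.04). Prelp had 46 UMIs at 33 weeks and 156 UMIs at 30 weeks, 1.56-fold lower (1.12 to 2.22), but 35 and 70 without the 9 cells, a ratio of 1.10 (0.711 to 1.67).

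Fibrillar collagens at 33 weeks had 1 of 4 higher, the rule gene Col1a1, with a median of 0.04, and immediate early genes had 1 of 21 higher and 5 lower, with a median of -0.08. Basement membrane genes had 0 of 5 higher and 2 lower, with Col15a1 at 15 UMIs at 33 weeks and 73 UMIs at 30 weeks, 2.24-fold lower (1.27 to 4.21), or 5.08-fold lower without the 9 cells. The sexes were mixed at 33 weeks, with 5 female and 4 male fibroblast-cluster cells, against 29 female and 0 male at 30 weeks. In female cells alone the elastic fibre median was 0.90, with 3 of 6 higher.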

How the data were processed

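Per the file headers, the authors made the matrices with Cell Ranger 6.0.1 and deposited UMI counts per gene and called cell. The genome was mm10, per the submitters' processing notes, and the annotation is not given in the sources used here. Gene positions are from GENCODE M21 and promoters from RefSeq (GRCm38.p6). Here counts of the chosen cells were summed per library and scaled to CPM. Ratios carry exact conditional-binomial 95% intervals, levels and shares exact Poisson and Clopper-Pearson ones, all for counting error only. With 1 library per group, no test was made: a gene counted as higher or lower was past 1.5-fold and had 50 or more UMIs summed over the pair of libraries, and a count of 0 was set to a floor of 3 counts per library in ratios. A total of 2 cords was pooled in each library, so spread between mice is not measured.

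Rule cells were clustered with scanpy 1.11.5 (Python 3.11.15; 1500 variable genes without sex-linked, mitochondrial and ribosomal ones, 15 components, 15 neighbours, Leiden resolution 0.5). Doublets were called with scrublet per library and left in. Sex was called per cell from Xist and Y-linked genes. TMM factors came from edgeR 4.0.16 (R 4.3.3) as an alternative scaling. Ratios and intervals were first checked on simulated counts. The members, gene lists and marker lists were chosen with earlier results of these data known, and the use of the fibroblast clusters in place of all rule cells was chosen after seeing the data. In each comparison the named genes are the 8 at either end of the ratios after adding 5 CPM (leaving out genes under 20 CPM, sex-linked, predicted, haemoglobin, mitochondrial, ribosomal and receptor segment genes and those over 2 times higher in other kept cells), the 15 highest genes over 5 times enriched, and up to 5 members of each list. Further genes (those of the single cells, Ptgds, Cst3, Igfbp6, Krtdap, Ly6a, Cxcl12, Abca8a, Igtp, H2-Q7) were named after their values were seen.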

Additional observations from a re-analysis of the deposited data

How the results depend on the processing

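No paired analysis was possible because each group is 1 library. The depth limits these values: 101 fibroblast-cluster cells hold between 101005 and 239761 UMIs per library, and genes under 50 UMIs were not compared. Settings marked as added were chosen after seeing the data, and the cause of each change was not tested. Values below start from all rule cells. Under other settings, the share of kept cells stayed within its interval in 19 values over the libraries and left it in 9. In the library labelled CD8 KO (1.15%) it was 0.662% with at least 10 UMIs of the rule genes, 0.487% with at least 4 of the 6 genes and, added, 0.545% both in the fibroblast clusters and in cells under 0.5% of another lineage. In the 30-week P301S hom library (0.884%) it was 0.610% with 4 genes and, added, 0.631% under 0.5% of another lineage. In the P301S neg library (0.732%) it was 0.523% with 4 genes and, added, 0.488% in the fibroblast clusters and 0.401% under 0.5% of another lineage.

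Under other settings, 58 of the counts of genes past 1.5-fold stayed within 1.5 times and 62 did not. All counts under TMM and median-of-ratios scaling stayed within it. The number of genes counted changed with many settings, so it is given beside the counts, except those for female cells at 33 weeks. For genes higher with the transgene (251 of 3101 genes counted), a minimum of 20 UMIs gave 725 of 6361, 200 UMIs 58 of 639 and 2-fold 101 of 3101. Cells without UMIs of 6 vascular and immune genes gave 120 of 1082 and the arachnoid-like cluster 115 of 820. Added, the fibroblast clusters gave 132 of 1377, cells under 0.5% of another lineage 124 of 1209 and the fibroblast clusters without the 9 cells 108 of 1173. For genes lower with the transgene (433 of 3101), the same settings, with the same numbers of genes counted, gave 1118, 60, 135, 115, 89, 184, 147 and 146. At least 4 rule genes gave 240 of 2124 and, added, female cells of the fibroblast clusters 147 of 873. For genes higher in the library labelled CD8 KO (333 of 3298), the same 8 settings gave 981 of 6610, 32 of 712, 88 of 3298, 179 of 1573, 135 of 1048, 204 of 1498, 189 of 1493 and 155 of 1275. At least 10 rule UMIs gave 188 of 2223, at least 4 rule genes 172 of 1811 and equal weight per cell 592 of 3298. The 30-week P301S hom library had no male cells, so male cells were set against those of the 33-week library instead, which also differs in age. That gave 611 of 1836 and, added, in the fibroblast clusters 163 of 653. For genes lower there (233 of 3298), the 8 settings, with the same numbers of genes counted, gave 747, 39, 68, 123, 88, 143, 138 and 112. At least 4 rule genes gave 154 of 1811. Male cells against those of the 33-week library gave 350 of 1836, and 95 of 653 in the fibroblast clusters. For genes higher at 33 weeks (209 of 1577), a minimum of 20 UMIs gave 580 of 4043, 200 UMIs 43 of 328 and 2-fold 65 of 1577. Cells without UMIs of the 6 vascular and immune genes gave 101 of 1022 and the arachnoid-like cluster 86 of 701. Added, the fibroblast clusters gave 101 of 976 and cells under 0.5% of another lineage 91 of 972. Without the 9 cells those clusters gave 80 of 815. At least 4 rule genes gave 136 of 1008 and, added, leaving out the highest cell of each gene 125 of 1577. Female fibroblast-cluster cells gave 100. For genes lower at 33 weeks (316 of 1577), the 8 settings, with the same numbers of genes counted, gave 1075, 57, 177, 126, 87, 112, 102 and 95. Female fibroblast-cluster cells gave 143.

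Of list medians, 657 values stayed close, 93 moved and 9 changed sign; of ratios of named genes, 578 stayed close, 122 moved and 4 changed sign. A ratio was left out where both counts were at or under 3, or where a floor of 3 counts put in for a 0 was above the other level. Without the 9 cells, the median log2 ratio of small proteoglycans turned to -0.15 for the transgene and 0.12 for the library labelled CD8 KO, where fibrillar collagens turned to 0.025 and beaded and network collagens to 0.041. At 33 weeks without them, beaded and network collagens turned to -0.53 and matricellular and scar fibroblast genes to -0.25, and in female cells to -0.15 and -0.55. Fibrillar collagens at 33 weeks turned to -0.071 in cells under 0.5% of another lineage. For the library labelled CD8 KO, Comp turned to 0.82 without the 9 cells. Set against the few male cells of the 33-week library instead, Ccl5 turned to -1.24 and Timp1 to -1.83, or -0.49 in the fibroblast clusters, and 1 of those 33-week cells held 27 of 27 UMIs of Ccl5 and 71 of 82 of Timp1.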

Other observations

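Ecrg4, the leading gene of the arachnoid-like cluster, had 1300 UMIs in 17 of 32 fibroblast-cluster cells of the 30-week P301S hom library and 318 UMIs in 9 of 28 cells of the P301S neg library, a ratio of 3.71 (3.28 to 4.21). Arachnoid-like cells were 50% of those cells in P301S hom and 35.7% in P301S neg. Within the arachnoid-like cluster Ecrg4 had 1299 UMIs in P301S hom and 316 in P301S neg cells, with a log2 ratio of 1.51, and without the 9 cells described above the ratio over the fibroblast clusters was 2.17. Among BMP and TGF-beta genes, 2 of 8 were higher in P301S hom cells, the BMP target genes Id1 with 163 UMIs in P301S hom and 77 in P301S neg cells, a ratio of 1.92 (1.46 to 2.55), and Id2 with 97 in P301S hom and 58 in P301S neg cells, a ratio of 1.52 (1.09 to 2.14) that was 1.47 without the 9 cells, while Bmp4 and Fstl1 were lower. Fstl1, a secreted BMP antagonist, had 104 UMIs in P301S hom and 153 in P301S neg cells. In the CD8 KO comparison, Id1 had 116 UMIs in KO-labelled and 163 in 30-week P301S hom cells, 1.54-fold lower, or 1.37-fold lower without the 9 cells. Id2 had 56 in KO-labelled and 97 in 30-week P301S hom cells, 1.89-fold lower, and Fstl1 had 173 in KO-labelled and 104 in 30-week P301S hom cells, a ratio of 1.52 (1.19 to 1.96) that was 1.45 without the 9 cells.

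The list of matricellular and scar fibroblast genes split in each comparison. It had 5 of 10 higher and 4 lower in the P301S hom library against the P301S neg library, 2 of 9 higher and 5 lower in the library labelled CD8 KO, then 3 of 9 higher and 2 lower at 33 weeks. Sparc, a collagen-binding matricellular protein, had 1410 UMIs in P301S hom and 562 in P301S neg cells, and 1 P301S hom cell held 55.9% of its count, with 483 UMIs in P301S hom and 528 in P301S neg cells without the 9 cells. Spp1, osteopontin, had 14 UMIs at 33 weeks and 236 at 30 weeks, 7.76-fold lower (4.53 to 14.4). Glycolysis genes had 2 of 9 higher in the library labelled CD8 KO against the 30-week P301S hom library, Aldoa with 164 UMIs in KO-labelled and 96 in 30-week P301S hom cells and Pgk1 with 44 in KO-labelled and 15 in 30-week P301S hom cells. Complement genes had 1 of 6 higher and 3 lower in P301S hom cells, with C3 at 40 UMIs in P301S hom and 16 in P301S neg cells.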
